A study of Mus musculus with 12 samples.

Results

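The 36 genes described here encode chaperones, folding enzymes and secretory machinery of the endoplasmic reticulum (ER). They are given by name, in a choice made with earlier results of these data known, and were looked up by symbol among the 48576 genes listed for each mouse liver. All 36 were found, Ero1a and Ero1b under their older symbols Ero1l and Ero1lb, and all 36 were among the 17964 genes with enough counts to be tested. They fall into 6 groups by role: chaperones and lectins (6 genes), co-chaperones and cofactors (6), oxidative folding (7), translocation and glycosylation (8), ER-associated degradation (7) and the transcription factors of the unfolded protein response (2).

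Proteins bound for secretion enter the ER through the Sec61 channel, are N-glycosylated, fold with the help of chaperones, lectins and disulphide isomerases, and are sent back to the cytosol for degradation when folding fails. When unfolded proteins accumulate, the sensors IRE1, ATF6 and PERK start the unfolded protein response. IRE1 splices Xbp1 mRNA, ATF6 is released from the membrane by cleavage, and both factors switch on genes of the folding machinery. PERK slows translation and favours ATF4. Hepatocytes secrete most plasma proteins and are rich in rough ER.

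Total RNA of 12 mouse liver samples was sequenced, in 5 groups. Each sample is called a liver here, although the labels do not say whether replicates are separate mice. The YAP model carried Col-TRE-YAPS127A and Rosa26-LSL-rtTA: doxycycline drives YAPS127A, a YAP mutant that escapes inhibitory phosphorylation, once Cre has switched on rtTA. Cre came from AAV-TBG-Cre, whose TBG promoter is active in hepatocytes, given at 8 to 10 weeks of age. Livers of this genotype were collected after 2 weeks (n = 2) or 4 weeks (n = 3) of induction, and livers in which YAPS127A was not induced served as YAP controls (n = 2). The MYC model carried LAP-tTA, a liver-specific driver, and TRE-MYC. Doxycycline was stopped in the mothers near E8 of gestation, and the offspring were sampled 4 weeks after birth (n = 3). MYC controls were LAP-tTA mice (n = 2), with no doxycycline schedule or age at sampling recorded for them here. The labels call the cells hepatocytes, but the RNA came from whole liver, so fewer cells of a type and less RNA per cell cannot be told apart in any value below. The design asks how each transgene changed the liver transcriptome, at 2 times for YAP.

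Several features of the libraries moved with the groups, and their part in the results below was not tested except where a value is given. Libraries held 12511170 to 17690798 counts. The summed level of 8 hepatocyte markers (CPM, counts scaled to library size with TMM factors) was 77237 to 92093 in YAP controls, 69997 to 89183 at 2 weeks, 34633 to 72684 at 4 weeks, 31059 to 55279 with MYC and 106320 to 109220 in MYC controls. Of the 8 hepatocyte markers 2, 5 and 3 fell at 2 weeks, 4 weeks and with MYC, and none rose. The 8 macrophage markers summed to 268 to 276 CPM in YAP controls, 1356 to 1571 at 2 weeks, 423 to 941 at 4 weeks, 634 to 743 with MYC and 267 to 273 in MYC controls. The 8 cholangiocyte markers summed to 150 to 159 CPM in YAP controls, 643 to 1302 at 2 weeks and 504 to 3306 at 4 weeks. The 8 neutrophil markers summed to 2.44 to 4.83 CPM in YAP controls, 17.1 to 203 at 2 weeks, 57.4 to 172 at 4 weeks, 4.05 to 4.33 in MYC controls and 790 to 1545 with MYC, and 4, 7 and 8 of them rose at 2 weeks, 4 weeks and with MYC. The 10 skeletal muscle markers summed to 465 to 518 CPM at 2 weeks, to 0.955 to 1.16 CPM in YAP controls and to 3.11 to 19.5 CPM at 4 weeks. Plasma cells and pancreatic acinar cells are themselves rich in ER. The 8 B and plasma cell markers summed to 18.1 to 27.5 CPM in YAP controls, 14.6 to 24.3 at 2 weeks and 11.8 to 59.3 at 4 weeks. They summed to 13.5 to 17.0 CPM with MYC and 10.8 to 14.8 in MYC controls. Igha was at 7.54 and 7.96 CPM in YAP controls and 2.54, 16.1 and 25.4 at 4 weeks, and Tnfrsf17 at no more than 0.116 CPM in any library. None of those tested passed against controls. The 11 acinar markers, of which Cela1 alone had enough counts to be tested, summed to 17.5 to 25.6 CPM in YAP controls, 0.921 to 3.05 in YAP livers, 5.69 to 7.43 with MYC and 28.4 to 38.1 in MYC controls, with Cpa1 and Prss1 at 0 in all 12 libraries. Mitochondrially encoded genes took 19.3 and 19.6% of counts in YAP controls, 10.2 and 13.9% at 2 weeks, 7.67 to 11.7% at 4 weeks, 15.1 to 20.8% with MYC and 15.0 and 15.8% in MYC controls. By Xist and Y-linked genes, 2-week YAP replicate 2 and all 3 4-week libraries had a female pattern and the other 8 libraries a male one. Counts under the symbol Yap1 were 86.5 and 81.2 CPM in YAP controls, 80.1 and 87.4 at 2 weeks and 85.8, 65.6 and 69.0 at 4 weeks. Counts under Myc were 15.5 and 6.71 CPM in MYC controls and 31.4, 23.2 and 22.2 with MYC, and 53.2 and 8.17 in YAP controls, 104.6 and 107 at 2 weeks and 117, 64.8 and 111 at 4 weeks. Whether transgene reads were counted under these symbols is not given in the sources used here, so these values do not check the labels.

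Promoters are shown first because some of them carry a sequence by which ATF6 and XBP1 are known to recognise ER chaperone genes. RefSeq start sites on GRCm38.p6 gave a promoter for 29 of the 36 genes, and the 250 bases before the start were searched on both strands for 3 motifs. The ER stress response element, CCAAT and CCACG with 9 bases between them, was found in 10 of 29 members (34.5%) and in 35 of 27025 genes with a promoter (0.13%): Hspa5, Hsp90b1, Calr, Canx, Dnajc3, Creld2, Pdia6, Ero1lb, Syvn1 and Derl3. The second element, ATTGG and CCACG with 1 base between them, was found in 1 of 29 members, Herpud1, and in 10 of 27025 genes (0.037%). The core of the unfolded protein response element, TGACGTGG, was found in 1 of 29 members, Txndc5, and in 163 of 27025 genes (0.603%). No matches of different motifs overlapped, and 12 of the 29 promoters held any of the 3. The stretches below are read 5′ to 3′ on the strand of the gene, and capitals mark the fixed letters of a match on either strand. The Hspa5 stretch lies before the RefSeq start but within an exon of the GENCODE vM21 annotation, whose Hspa5 starts further upstream, and is shown with shorter flanks for that reason. Hspa5 is shown for the best known member, Hsp90b1 for its 2 matches, and Calr, Dnajc3, Creld2, Pdia6 and Ero1lb for their lower levels under YAP. Derl3 and Herpud1 are shown as genes that did not pass under YAP.
Hspa5 (chr2:34772020-34772048, plus strand): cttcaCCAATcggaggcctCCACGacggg
Hsp90b1 (chr10:86705521-86705668, minus strand): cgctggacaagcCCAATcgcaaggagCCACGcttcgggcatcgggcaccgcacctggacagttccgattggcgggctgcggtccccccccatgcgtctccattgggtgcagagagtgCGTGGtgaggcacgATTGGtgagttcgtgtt
Calr (chr8:84847063-84847105, minus strand): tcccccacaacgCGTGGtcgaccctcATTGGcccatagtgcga
Dnajc3 (chr14:118937815-118937857, plus strand): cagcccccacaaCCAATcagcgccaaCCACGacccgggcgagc
Creld2 (chr15:88819508-88819550, plus strand): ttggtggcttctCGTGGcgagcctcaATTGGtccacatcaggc
Pdia6 (chr12:17266479-17266521, plus strand): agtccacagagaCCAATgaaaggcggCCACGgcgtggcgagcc
Ero1lb (chr13:12565670-12565712, plus strand): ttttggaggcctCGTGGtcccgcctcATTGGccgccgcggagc
Derl3 (chr10:75893230-75893272, plus strand): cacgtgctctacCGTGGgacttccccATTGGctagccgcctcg
Herpud1 (chr8:94386365-94386399, plus strand): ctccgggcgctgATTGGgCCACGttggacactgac
Of the 10 members with the first element, 8 fell at 2 weeks and 9 at 4 weeks of YAP and 1 fell with MYC. Of the 17 members with a promoter and none of the 3 motifs, 13 fell at 2 weeks, 14 at 4 weeks and 2 with MYC. Of all tested genes 12.7, 15.7 and 8.56% fell in these comparisons, and nothing is read from the MYC counts, which are near that share. A match is a run of letters, not a measured site, and its part in the changes was not tested.

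Exons of 11 of the 36 genes (Hsp90b1, Dnajb9, Manf, Pdia3, Pdia4, Pdia6, Txndc5, Sec61a1, Ssr2, Syvn1 and Derl2) overlap exons of another gene in GENCODE vM21 on GRCm38, from which gene positions are given below. The strand setting of the counting is not given in the sources used here, so the values of these genes may hold reads of both. Levels are given as CPM for comparisons of 1 gene between livers, and as CPM per kilobase of exon where genes are compared with each other. In YAP controls the most abundant members per kilobase were Calr (460 CPM per kb), a lectin chaperone, P4hb (444), the classical disulphide isomerase, and Hsp90b1 (305), followed by Pdia3 and by Hspa5 (202). The least abundant were Ero1l (3.37 CPM per kb), Derl3 (3.57), Hspa13 (6.42) and Derl2 (10.5). Under YAP the order changed for many genes, of which some are given here. Hyou1 went from rank 15 of 36 in YAP controls to 29 at 2 weeks and 28 at 4 weeks. Sdf2l1 went from 14 to 27 and 23, Creld2 from 22 to 30 and 30, and Sec61b from 16 to 24 and 22. In the other direction, Herpud1 went from 8 to 2 and 3 and Sel1l from 25 to 17 and 18, and neither passed. In MYC livers Calr was again first (381 CPM per kb), followed by Hspa5 (344), P4hb (327) and Hsp90b1 (303).

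**Figure D1:**
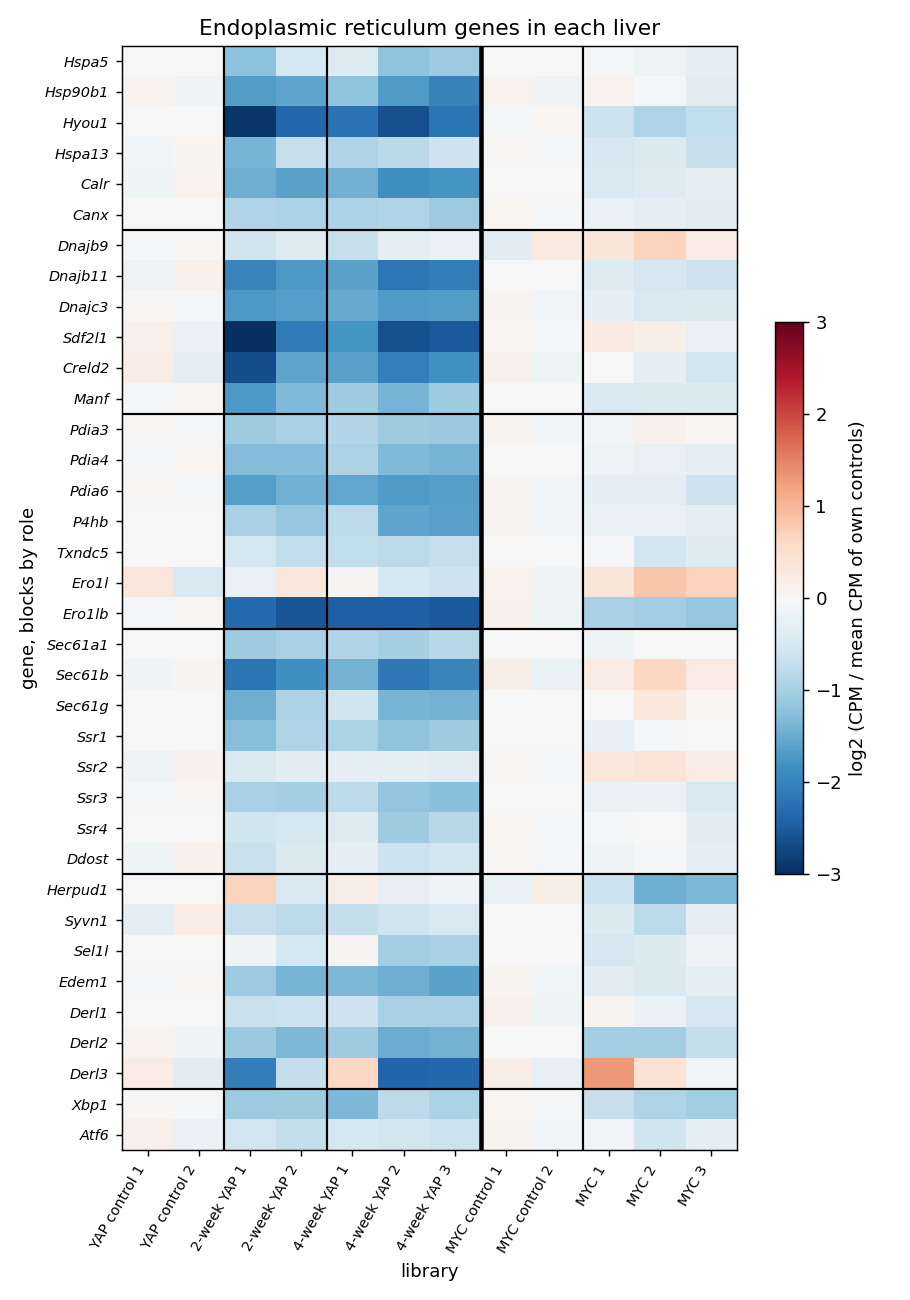
Each cell shows the log2 ratio of a gene's CPM (TMM-scaled) in 1 liver to the mean of its own model's controls; rows are the 36 genes in blocks by role, columns the 12 livers, blue is lower and red higher. Most rows are blue in all 5 YAP livers, whereas the MYC columns are pale for most genes.

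Most of the ER group was lower in YAP livers. After 2 weeks 28 of the 36 genes fell, none rose and 8 did not pass the test, where 12.7% of all tested genes fell and 15.1% rose (edgeR quasi-likelihood test, called at an adjusted p under 0.05). After 4 weeks 30 fell, none rose and 6 did not pass, where 15.7% of all tested genes fell and 18.1% rose. All 28 genes called at 2 weeks were also called at 4 weeks, with Hspa5 and Ssr4 in addition; the comparisons share their control livers. The summed level of the 36 genes was 11485 and 11545 CPM in YAP controls, 5355 and 5264 at 2 weeks, and 6035, 4648 and 4619 at 4 weeks. All 5 induced livers lay below both controls. Before TMM scaling, the 36 genes took 0.853 and 0.856% of all counts in YAP controls, 0.523 and 0.618% at 2 weeks and 0.582 to 0.674% at 4 weeks, again without overlap.

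The median log2 fold change of the 36 genes was -1.07 at 2 weeks and -1.04 at 4 weeks, beside 0.10 and 0.18 for all tested genes. Scaling to total counts moved the median of all genes to 0.64 and 0.91 and that of the ER genes to -0.53 and -0.31, so the size of the fall depends on which reference is held constant. Relative to the median of all genes the ER median was lower by nearly the same amount under both scalings, with differences of -1.17 and -1.16 at 2 weeks and -1.22 and -1.22 at 4 weeks. A change of scaling shifts every gene by nearly the same amount. This likeness, and that of the counts below the median of all genes, was therefore fixed in advance and tests nothing. With TMM scaling, 35 of 36 genes lay below the median of all genes at 2 weeks and 36 of 36 at 4 weeks; with total counts it was 34 and 36. With total counts 14 of the 36 fell and none rose at 2 weeks (5.45% of all genes fell and 29.1% rose), and 14 fell and 1, Herpud1, rose at 4 weeks (4.99% and 43.8%). Hsp90b1, Hyou1, Calr, Dnajb11, Dnajc3, Sdf2l1, Creld2, Pdia4, Pdia6, Ero1lb, Sec61b, Edem1 and Derl2 fell under both scalings at both times, Manf did so at 2 weeks and P4hb at 4 weeks.

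**Figure D2:**
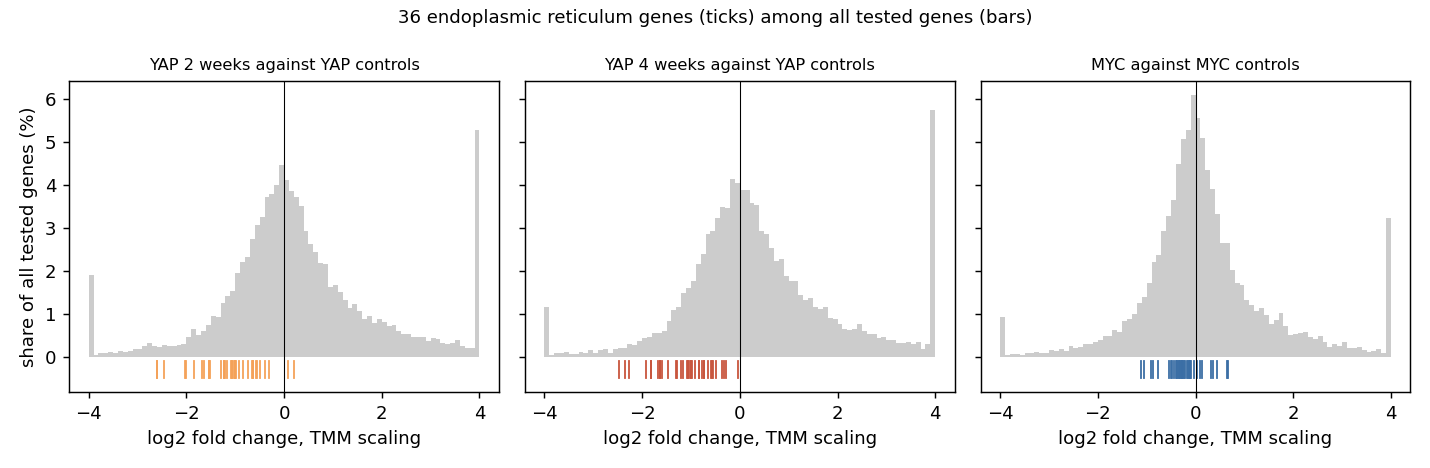
Ticks show the log2 fold changes of the 36 ER genes under the distribution of all 17964 tested genes (grey bars, share in percent, values beyond 4 collected in the end bars) for each comparison with controls. The ticks lie left of the centre of the bars for both YAP times. For MYC they lie nearer the centre, with 28 of 36 below the median of all genes.

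Among chaperones and lectins, 5 of 6 fell at 2 weeks and 6 of 6 at 4 weeks. Hyou1 (ENSMUSG00000032115.14, chromosome 9, 44379490 to 44392369), a large Hsp70-like protein that exchanges nucleotide on BiP, was at 405 and 411 CPM in YAP controls, 54.0 and 79.6 at 2 weeks and 87.2, 65.7 and 88.5 at 4 weeks. Every induced liver was far below the controls, and the log2 fold changes of -2.61 ± 0.24 (SE) and -2.34 ± 0.21 were the most negative and the second most negative of the 36 genes at the respective times (edgeR adjusted p = 9.56e-05 and 4.95e-05). Hsp90b1 (ENSMUSG00000020048.13, chromosome 10, 86690209 to 86705509), the Hsp90 of the ER lumen, was at 1323 and 1137 CPM in controls, 384 and 408 at 2 weeks and 530.1, 381 and 305 at 4 weeks. Again no induced liver reached a control (-1.63 ± 0.28, edgeR adjusted p = 0.00194, and -1.60 ± 0.25, adjusted p = 0.000866). Calr (ENSMUSG00000003814.8, chromosome 8, 84841850 to 84846934), which with Canx binds monoglucosylated glycoproteins, was at 1216 and 1432 CPM in controls, 482 and 436 at 2 weeks and 485, 372 and 389 at 4 weeks. All induced livers had less Calr than either control (-1.53 ± 0.22 and -1.67 ± 0.20, edgeR adjusted p = 0.000774 and 0.000193). Canx fell by a smaller amount (-0.93 ± 0.18 and -0.98 ± 0.17), as did Hspa13, an Hsp70-like ATPase of microsomes (-1.01 ± 0.22 and -0.77 ± 0.19).

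Hspa5 (ENSMUSG00000026864.13, chromosome 2, 34771970 to 34777547), which encodes BiP, the main Hsp70 of the ER and the protein that holds the stress sensors inactive, had smaller fold changes than Hyou1, Hsp90b1 and Calr, a difference that was not tested. It was at 853 and 859 CPM in controls, 367 and 594 at 2 weeks and 656, 370.0 and 404 at 4 weeks. The groups did not overlap, but 1 liver of each induced group, 2-week replicate 2 and 4-week replicate 1, lay well above the rest of its group. The log2 fold change was -0.83 ± 0.31 at 2 weeks, which did not pass (edgeR adjusted p = 0.0677), and -0.84 ± 0.28 at 4 weeks, which did (adjusted p = 0.0371). The 4-week call was lost without control replicate 1 (edgeR adjusted p = 0.134), control replicate 2 (0.137), 4-week replicate 2 (0.107) or 4-week replicate 3 (0.113), and with total counts (adjusted p = 0.699).

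**Figure D3:**
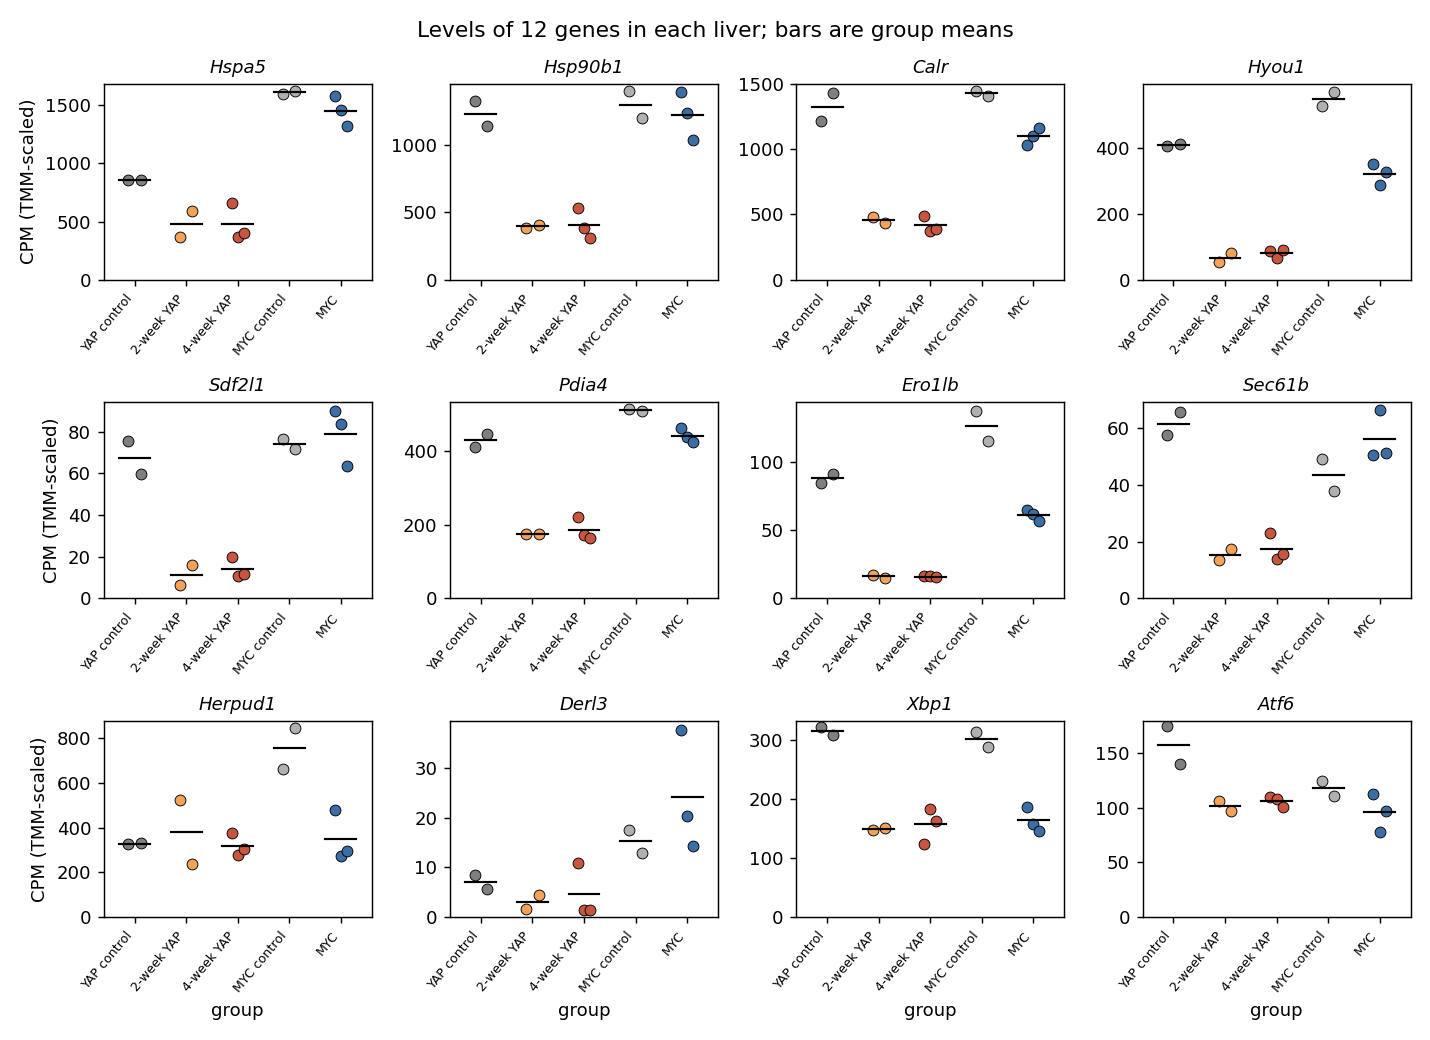
Points are the CPM (TMM-scaled) of 12 named genes in each liver by group, bars are group means and each vertical axis starts at 0. For Hyou1, Calr, Ero1lb and Sec61b the YAP livers lie far below their controls, Hspa5 and Derl3 spread widely among YAP livers, and Herpud1 overlaps with its YAP controls but is lower with MYC.

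Co-chaperones fell in 5 of 6 cases at both times and held the largest median change of the role groups (-1.76 at 2 weeks and -1.73 at 4 weeks). Sdf2l1, a partner of the BiP co-chaperone ERdj3, was at 75.6 and 59.5 CPM in controls, 6.45 and 15.7 at 2 weeks and 19.6, 10.8 and 11.8 at 4 weeks. All 5 induced livers lay far below both controls, and the log2 fold changes were -2.60 ± 0.40 and -2.26 ± 0.34 (edgeR adjusted p = 0.00122 and 0.000907). Dnajb11, which encodes ERdj3 itself, was at 134 and 165 CPM in controls, 37.9 and 45.4 at 2 weeks and 49.4, 33.4 and 35.7 at 4 weeks. It fell by similar amounts at both times (-1.84 ± 0.21 and -1.92 ± 0.19, edgeR adjusted p = 0.000221 and 6.87e-05). Dnajc3, the J-domain protein p58IPK, was at 486 and 456 CPM in controls, 144 and 151 at 2 weeks and 164, 144 and 147 at 4 weeks. Its 5 induced livers lay within a narrow band (-1.68 ± 0.18 and -1.63 ± 0.16, edgeR adjusted p = 0.000151 and 6.47e-05).

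Creld2, a stress-induced ER protein, was at 54.1 and 38.8 CPM in controls, 7.30 and 15.5 at 2 weeks and 15.1, 11.1 and 13.2 at 4 weeks. Its values correspond to log2 fold changes of -2.02 ± 0.33 and -1.82 ± 0.29 (edgeR adjusted p = 0.00147 and 0.000954). Manf, a BiP-binding protein that can also be secreted, was at 75.7 and 81.9 CPM in controls, 23.9 and 31.6 at 2 weeks and 37.7, 29.8 and 37.7 at 4 weeks. The groups did not overlap (-1.51 ± 0.18 and -1.17 ± 0.16, edgeR adjusted p = 0.000263 and 0.000412). Dnajb9, which encodes ERdj4, a repressor of IRE1, was the member of this role group that did not pass. It was at 81.5 and 84.8 CPM in controls, 55.3 and 63.2 at 2 weeks and 51.8, 68.8 and 72.0 at 4 weeks. Its log2 fold changes were -0.49 ± 0.24 and -0.37 ± 0.21 (edgeR adjusted p = 0.142 and 0.196), with positive values under total counts (0.06 and 0.38).

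In oxidative folding 6 of 7 genes fell at both times, and of the 2 oxidases that recharge the disulphide isomerases 1 passed. Ero1lb (ENSMUSG00000057069.7, chromosome 13, 12565874 to 12611396) was at 84.4 and 90.9 CPM in controls, 17.4 and 14.8 at 2 weeks and 15.9, 15.9 and 15.2 at 4 weeks. The 5 induced livers differed little from each other, and the level was 5.46-fold lower at 2 weeks and 5.59-fold lower at 4 weeks. The log2 fold changes of -2.45 ± 0.16 and -2.48 ± 0.14 (edgeR adjusted p = 3.34e-05 and 8.1e-06) ranked 4 and 3 by p among all 17964 genes. Ero1l (ENSMUSG00000021831.9, chromosome 14, 45283087 to 45318771) was less abundant than Ero1lb in YAP controls, at 3.37 beside 13.2 CPM per kb. It was not less abundant at 2 weeks (3.58 beside 2.41) or 4 weeks (2.70 beside 2.36). Its levels were 22.6 and 13.05 CPM in controls, 15.3 and 22.5 at 2 weeks and 18.8, 12.3 and 11.7 at 4 weeks. The groups overlapped (0.09 ± 0.32 and -0.32 ± 0.29, edgeR adjusted p = 0.871 and 0.417). The sign of its 2-week value turned negative without YAP control replicate 2 (-0.26) or 2-week replicate 2 (-0.22), and that of its 4-week value turned positive without YAP control replicate 1 (0.14).

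All 5 disulphide isomerases fell at both times. Pdia6 was at 491 and 472 CPM in controls, 153 and 177 at 2 weeks and 162, 148 and 152 at 4 weeks. Its fall was the largest of the 5 (-1.54 ± 0.20 and -1.64 ± 0.17, edgeR adjusted p = 0.000383 and 0.000113). Pdia4 was at 413 and 448 CPM in controls, 175 and 175 at 2 weeks and 222, 173 and 163 at 4 weeks. For Pdia4 the log2 fold changes were -1.29 ± 0.20 and -1.21 ± 0.17 (edgeR adjusted p = 0.000972 and 0.000566). Neither gene had an induced liver near the controls. P4hb fell from 1254 and 1288 CPM to 649 and 568 at 2 weeks and 737, 425 and 413 at 4 weeks (-1.06 ± 0.29 and -1.28 ± 0.25). Pdia3, the partner of the lectins, changed by -1.01 ± 0.20 and -1.02 ± 0.18, and Txndc5 by -0.64 ± 0.20 and -0.74 ± 0.18.

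The translocation and glycosylation group had 6 of 8 genes lower at 2 weeks and 7 of 8 at 4 weeks, with a median of -1.01 and -0.98. Sec61b, the beta subunit of the channel, was at 57.6 and 65.6 CPM in controls, 13.4 and 17.3 at 2 weeks and 22.9, 13.8 and 15.6 at 4 weeks. Its induced livers did not overlap with the controls, and its log2 fold changes of -2.00 ± 0.27 and -1.82 ± 0.23 (edgeR adjusted p = 0.000483 and 0.000296) compare with -1.03 ± 0.15 and -0.91 ± 0.13 for Sec61a1, the pore, and -1.18 ± 0.28 and -1.08 ± 0.24 for Sec61g. Sec61a1 was at 149 and 153 CPM in controls, 71.4 and 76.8 at 2 weeks and 81.2, 75.9 and 83.9 at 4 weeks (edgeR adjusted p = 0.00073 and 0.00058). Whether the 3 subunits differ from each other in their change was not tested.

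The 4 subunits of the translocon-associated complex, Ssr1 to Ssr4, spanned a range of values. Ssr1 was at 205 and 202 CPM in controls, 84.2 and 109.7 at 2 weeks and 106, 88.4 and 97.5 at 4 weeks (-1.07 ± 0.18 and -1.07 ± 0.16), and Ssr3 had similar values (-0.98 ± 0.20 and -1.06 ± 0.18). Ssr4 passed at 4 weeks (-0.74 ± 0.19, edgeR adjusted p = 0.0133) but not at 2 weeks (-0.57 ± 0.21, adjusted p = 0.0674); without YAP control replicate 1 or 2 the 4-week adjusted p was 0.0713 and 0.0681. Ssr2 passed at neither time (-0.39 ± 0.15 and -0.28 ± 0.14, edgeR adjusted p = 0.076 and 0.132) and was positive under total counts (0.15 and 0.45). Ddost, a subunit of the oligosaccharyltransferase that attaches N-glycans, fell by the least of the called genes at 2 weeks (-0.55 ± 0.18) and at 4 weeks (-0.49 ± 0.16), and its sign was positive under total counts at 4 weeks (0.24).

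ER-associated degradation had the lowest share of calls among the role groups, 4 of 7 at each time: Edem1, Derl1, Derl2 and Syvn1. Edem1, which delivers misfolded glycoproteins for degradation, was at 297 and 308 CPM in controls, 142 and 115 at 2 weeks and 119, 110.1 and 99.6 at 4 weeks. This gave log2 fold changes of -1.24 ± 0.18 and -1.46 ± 0.16 (edgeR adjusted p = 0.000774 and 0.000134). Derl2, a derlin of the membrane complex that exports such proteins, was at 91.2 and 77.8 CPM in controls, 39.0 and 33.2 at 2 weeks and 40.7, 30.1 and 31.5 at 4 weeks. The log2 fold changes of Derl2 were -1.23 ± 0.19 and -1.31 ± 0.17 (edgeR adjusted p = 0.00119 and 0.000345). In both genes every induced liver was below both controls. Derl1 (-0.65 ± 0.21 and -0.85 ± 0.18) and the ubiquitin ligase gene Syvn1 (-0.73 ± 0.21 and -0.59 ± 0.19) fell by less.

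Herpud1, Sel1l and Derl3 did not pass at either time. Herpud1 (ENSMUSG00000031770.16, chromosome 8, 94386438 to 94395377), a stress-induced membrane protein of the ligase complex, was at 326 and 332 CPM in controls, 522 and 237 at 2 weeks and 378, 276 and 303 at 4 weeks. Its 2-week livers lay on either side of the controls, so that the log2 fold change of 0.21 ± 0.37 (edgeR adjusted p = 0.713) became -0.46 without 2-week replicate 1, and the 4-week value was -0.04 ± 0.33 (adjusted p = 0.935). Derl3 was at 8.50 and 5.73 CPM in controls, 1.70 and 4.36 at 2 weeks and 10.9, 1.38 and 1.39 at 4 weeks. Replicate 1 of the 4-week livers was above both controls and the other 2 far below (-1.22 ± 0.98 and -0.65 ± 0.86, edgeR adjusted p = 0.385 and 0.59). Sel1l, the adaptor of the Syvn1 ligase, was at 233 and 236 CPM in controls, 216 and 163 at 2 weeks and 248, 116 and 119 at 4 weeks, where replicate 1 was again the high liver.

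Both transcription factors of the response fell at both times. Xbp1 (ENSMUSG00000020484.18, chromosome 11, 5520659 to 5525893) was at 322 and 308 CPM in controls, 148 and 151 at 2 weeks and 124, 183 and 163 at 4 weeks. No induced liver reached a control (-1.08 ± 0.21 and -1.01 ± 0.19, edgeR adjusted p = 0.00382 and 0.00238). Gene-level counts do not separate spliced from unspliced Xbp1, so the output of IRE1 was not measured. Atf6 (ENSMUSG00000026663.6, chromosome 1, 170704674 to 170867771) was at 174 and 139.9 CPM in controls, 106 and 96.4 at 2 weeks and 109.8, 108 and 101 at 4 weeks. Its values correspond to log2 fold changes of -0.64 ± 0.19 and -0.57 ± 0.17 (edgeR adjusted p = 0.0309 and 0.0281). The Atf6 call was lost without YAP control replicate 1 (edgeR adjusted p = 0.205 at 2 weeks and 0.234 at 4 weeks), 2-week replicate 1 (0.083) or 2 (0.163), and 4-week replicate 2 (0.0565) or 3 (0.08). Under total counts neither factor passed at either time, with a positive value for Atf6 at 4 weeks (0.17).

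**Figure D4:**
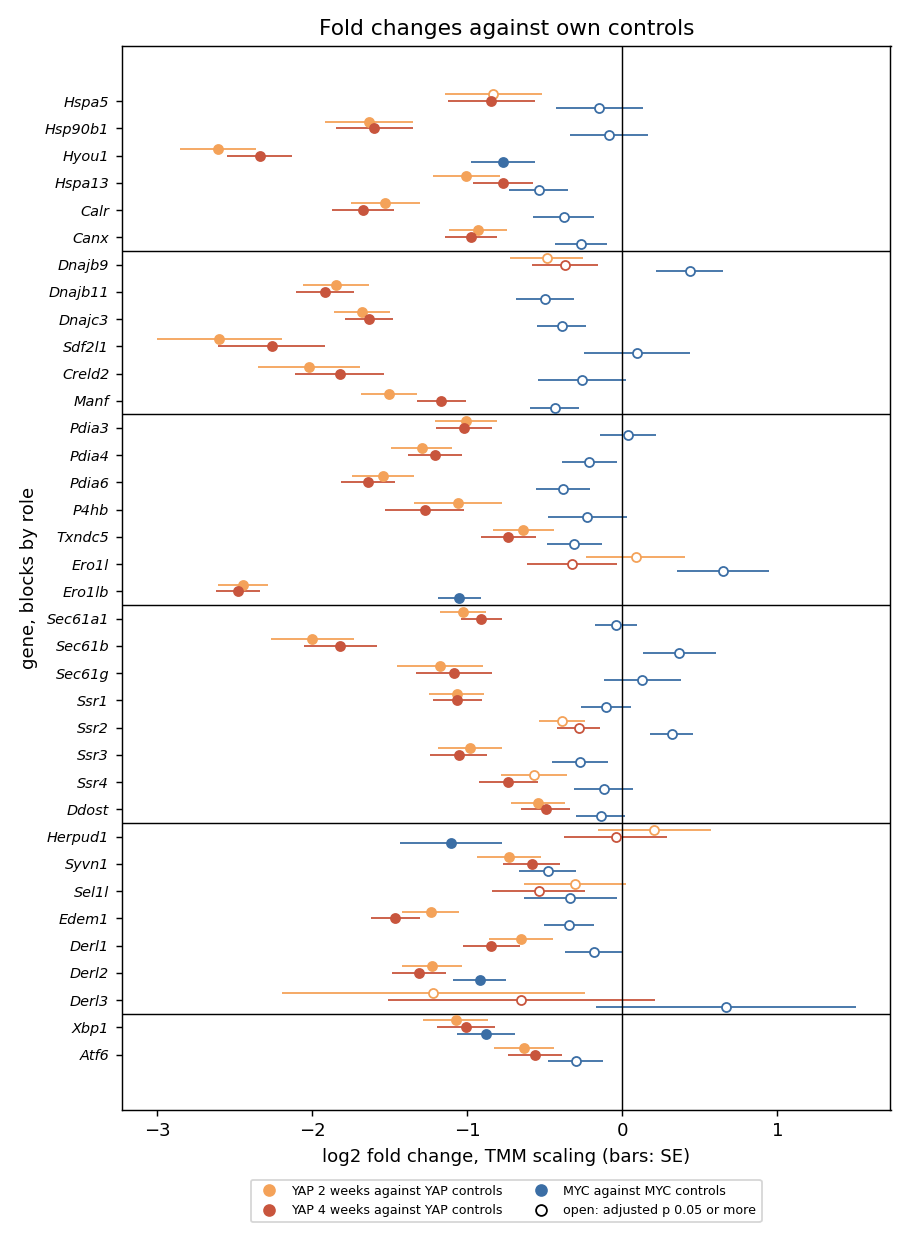
Points are log2 fold changes (TMM scaling) of the 36 genes against their own controls with bars of 1 SE, in blocks by role; filled points passed at an adjusted p under 0.05. The 2 YAP times lie close together for nearly every gene, and the MYC points lie nearer to 0, with filled points for Hyou1, Ero1lb, Herpud1, Derl2 and Xbp1.

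The length of YAP induction made no detectable difference to the group. Between 4 and 2 weeks, 0 of 36 genes passed in edgeR, 0 had an unadjusted p under 0.05 in edgeR or in DESeq2, and 0 passed in DESeq2; 0.0612% of all tested genes were lower at 4 weeks and none higher. The log2 differences of the 36 genes ran from -0.41 to 0.57, with a median of 0.02 beside 0.02 for all genes. With 2 and 3 livers this does not show that the 2 times are alike.

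Most YAP calls held when livers were left out. At 2 weeks 23, 23, 21 and 22 genes fell without control replicate 1, control replicate 2, 2-week replicate 1 and 2-week replicate 2. Of the 28 genes 21 were called each time and 7 were not. P4hb, Txndc5, Ddost and Derl1 were lost whichever of the 4 livers was left out (edgeR adjusted p = 0.054 to 0.222), Syvn1 without any but control replicate 1, Atf6 without any but control replicate 2, and Sec61g without 2-week replicate 1. At 4 weeks 25, 24, 31, 26 and 27 genes fell without control replicates 1 and 2 and 4-week replicates 1, 2 and 3. Of the 30 genes 23 were called each time and 7 were not. Ddost was lost without any liver but 4-week replicate 1, Txndc5 and Ssr4 without either control, Hspa13 without control replicate 2, Syvn1 without control replicate 2 or 4-week replicate 1 or 2, and Hspa5 and Atf6 as given above. Without 2-week replicate 2 the 2-week comparison holds livers of the male pattern alone, and its median of -1.10 was close to that with both livers. At 4 weeks all induced livers had the female and all controls the male pattern. With the sex pattern as a term, which was added after the data were seen and rests on 2-week replicates 1 and 2 alone, 22 genes fell at 2 weeks (median -1.10) and 11 at 4 weeks (median -1.14): Hyou1, Hspa13, Dnajb11, Dnajc3, Sdf2l1, Creld2, Manf, Pdia6, Ero1lb, Sec61b and Ssr1. In that fit 240 genes of all passed at 4 weeks, beside 6073 without the term.

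The MYC livers showed far fewer changes in this group. With MYC 5 of the 36 genes fell, none rose and 31 did not pass, where 8.56% of all tested genes fell and 9.76% rose; with 13.9% of members lower, the share is near that background. The summed level was 11844, 11275 and 10761 CPM with MYC and 13984 and 13458 in MYC controls, without overlap, whereas the share of all counts was 1.12, 1.29 and 1.25% with MYC and 1.11 and 1.12% in controls. The median log2 fold change was -0.26, beside 0.02 for all genes, and 0.14 beside 0.43 with total counts. Under total counts, 4 genes (Dnajb9, Ero1l, Sec61b and Ssr2) rose and 1, Ero1lb, fell, where 18.2% of all genes rose and 4.14% fell. The sign of the median with MYC thus depended on the scaling. Relative to the median of all genes the ER median was lower under both scalings, with differences of -0.28 and -0.29. With either scaling 28 of the 36 genes lay below the median of all genes. As for YAP, this likeness between scalings was fixed in advance.

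Ero1lb was the MYC call that held in every setting. It was at 137 and 115 CPM in MYC controls and 64.4, 61.4 and 56.6 with MYC, every MYC liver below both controls (-1.05 ± 0.14, edgeR adjusted p = 0.000977; -0.64 with total counts, adjusted p = 0.0122). Derl2 was at 115 and 114 CPM in controls and 55.1, 56.6 and 69.2 with MYC (-0.92 ± 0.17, edgeR adjusted p = 0.00514), and Xbp1 at 313 and 288 and 187, 158 and 145 (-0.88 ± 0.19, adjusted p = 0.00974). Neither overlapped with its controls. Hyou1 was at 526 and 568 CPM in controls and 349, 286 and 327 with MYC (-0.77 ± 0.21, edgeR adjusted p = 0.0249). Herpud1 was at 662 and 848 CPM in controls and 479, 275 and 298 with MYC (-1.11 ± 0.33, edgeR adjusted p = 0.0381), the 1 member called with MYC and at neither YAP time. Of the 5 calls, 3 were left without MYC replicate 2, 3 without MYC replicate 3, 1 without MYC control replicate 1 and 2 without MYC control replicate 2. Hyou1 and Herpud1 were lost without any liver but MYC replicate 1 (edgeR adjusted p = 0.058 to 0.22), Xbp1 without either MYC control (0.0905 and 0.0564) and Derl2 without MYC control replicate 1 (0.0512).

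The main chaperones did not pass with MYC. Hspa5 was at 1599 and 1625 CPM in MYC controls and 1578, 1458 and 1325 with MYC (-0.15 ± 0.28, edgeR adjusted p = 0.762), and Hsp90b1 at 1400.2 and 1199.5 and 1391, 1240.5 and 1039 (-0.09 ± 0.25, adjusted p = 0.852). Hsp90b1 overlapped with its controls, and Hspa5 lay just below them. Calr was at 1447 and 1405 CPM in controls and 1032, 1098 and 1162 with MYC (-0.38 ± 0.20, edgeR adjusted p = 0.21), Pdia4 at 515 and 509.9 and 463, 439 and 424 (-0.21 ± 0.18), and Creld2 at 89.2 and 74.6 and 82.5, 66.6 and 56.2 (-0.26 ± 0.28). All 5 values were positive under total counts. Sdf2l1, among the largest falls under YAP, was at 76.6 and 71.4 CPM in controls and 89.9, 83.4 and 63.6 with MYC (0.09 ± 0.34, edgeR adjusted p = 0.888), and Sec61b at 49.2 and 37.7 and 50.4, 66.5 and 51.2 (0.37 ± 0.24, adjusted p = 0.31). Derl3 spread from 14.3 to 37.7 CPM with MYC beside 17.6 and 12.9 in controls (0.67 ± 0.84), and Atf6 was at 112, 77.2 and 97.3 CPM beside 124 and 111 (-0.30 ± 0.18).

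The difference between the models was tested directly, as the MYC change minus the 4-week YAP change. Of the 36 genes 15 had a higher value with MYC and none a lower one, where 3.15% of all tested genes were higher and 4.33% lower, and the median difference was 0.92 beside -0.07 for all genes. The largest were Sdf2l1 (2.36 ± 0.49, edgeR adjusted p = 0.0186), Sec61b (2.18 ± 0.33, adjusted p = 0.00413) and Hyou1 (1.57 ± 0.30, adjusted p = 0.0113). Ero1lb, lower in both models, had a difference of 1.43 ± 0.20 (edgeR adjusted p = 0.00263), a smaller fall with MYC. Xbp1 (0.13 ± 0.27, edgeR adjusted p = 0.821) and Atf6 (0.27 ± 0.25, adjusted p = 0.565) did not pass, and nor did Hspa5 (0.70 ± 0.40, adjusted p = 0.315); total counts turned the sign for Xbp1 and Atf6 (-0.22 and -0.07). Under total counts 10 genes were higher and 1, Herpud1, lower (-1.41), where 1.5% and 7.01% of all genes were. The count of 15 became 5 without either YAP control, 9 without 4-week replicate 3, 3 without MYC control replicate 1 and 2 without MYC control replicate 2. Ero1lb and Sec61b were called each time. The count was 1, Sdf2l1, with the sex pattern as a term. In that fit Ero1lb (edgeR adjusted p = 0.131) and Sec61b (0.0711) did not pass. The models also differ in age, driver and genotype, which cannot be told apart from the transgene in this comparison.

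Genes that work beside the 36 were counted in 10 further lists. With TMM scaling most lists of the secretory route had a larger share of lower genes under YAP than all tested genes. Of all tested genes 12.7, 15.7 and 8.56% fell and 15.1, 18.1 and 9.76% rose at 2 weeks, 4 weeks and with MYC. With total counts 5.45, 4.99 and 4.14% fell and 29.1, 43.8 and 18.2% rose. List counts near these shares are not read as a result about the list. In export from the ER to the Golgi by COPII, 15 of 20 fell at 2 weeks and 15 of 20 fell with 1 higher at 4 weeks, with 5 lower with MYC. With total counts 4 fell and 2 rose, 2 fell and 1 rose, and none changed. Lman1, the cargo receptor for coagulation factors V and VIII, was at 459.7 and 513 CPM in YAP controls, 155 and 118 at 2 weeks and 136, 144 and 129 at 4 weeks (-1.83 ± 0.19 and -1.83 ± 0.17). Its relative Lman2 changed by -1.59 ± 0.16 and -1.63 ± 0.14. Of the COPI coat and KDEL receptors, which return ER residents from the Golgi, 8 of 10 fell at 2 weeks, 9 at 4 weeks and none with MYC (1, 0 and 0 fell and 0, 1 and 3 rose with total counts). Copz1 (-1.37 ± 0.16 and -1.11 ± 0.14) and Kdelr2 (-0.75 ± 0.14 and -0.78 ± 0.12) had the smallest p. Of the other oligosaccharyltransferase subunits 6 of 10 fell at 2 weeks, 7 at 4 weeks and 1 with MYC (1, 1 and 0 fell and 0, 2 and 3 rose with total counts), among them Rpn1 (-1.07 ± 0.16 and -0.97 ± 0.14). Of the signal recognition, signal peptidase and other translocon genes 8 of 17 fell at 2 weeks, 10 at 4 weeks and 3 with MYC, where 1 rose (4, 3 and 0 fell and 0, 2 and 2 rose with total counts). Srpr, the receptor of the signal recognition particle, changed by -1.28 ± 0.17 and -1.43 ± 0.15.

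Of 27 other ER folding enzymes 10 fell and 1 rose at 2 weeks, 12 fell and 3 rose at 4 weeks, and 4 fell with MYC (3 and 7, 2 and 12, and 0 and 3 fell and rose with total counts). Uggt1, the glycoprotein folding sensor, was at 179.5 and 168 CPM in YAP controls, 70.7 and 74.4 at 2 weeks and 80.6, 68.9 and 74.8 at 4 weeks (-1.26 ± 0.16 and -1.22 ± 0.14). Of 17 other genes of ER-associated degradation 6 fell at 2 weeks, 9 at 4 weeks and 5 with MYC (0 and 2, 1 and 5, and 2 and 0 fell and rose with total counts), with Erlin1 (-1.00 ± 0.15) the strongest with MYC by p. Of 15 cytosolic and mitochondrial chaperones, which share the folding task but not the compartment, 10 fell at 2 weeks, 11 at 4 weeks and 6 with MYC (4 and 2, 3 and 2, and 2 and 0 fell and rose with total counts). Hspa1b, an inducible cytosolic Hsp70, was at 78.8 and 66.3 CPM in YAP controls, 5.31 and 12.2 at 2 weeks, 5.78, 10.0 and 8.68 at 4 weeks, 22.5 and 24.5 in MYC controls and 2.86, 1.61 and 1.57 with MYC. It was below its own controls in all 8 transgenic livers. Of 18 secreted hepatocyte proteins, the clients of this machinery, 7 fell at 2 weeks, 11 at 4 weeks and 5 with MYC (5 and 2, 5 and 2, and 1 and 1 fell and rose with total counts), with Ttr at -2.43 ± 0.34 and -2.37 ± 0.30 under YAP.

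**Figure D5:**
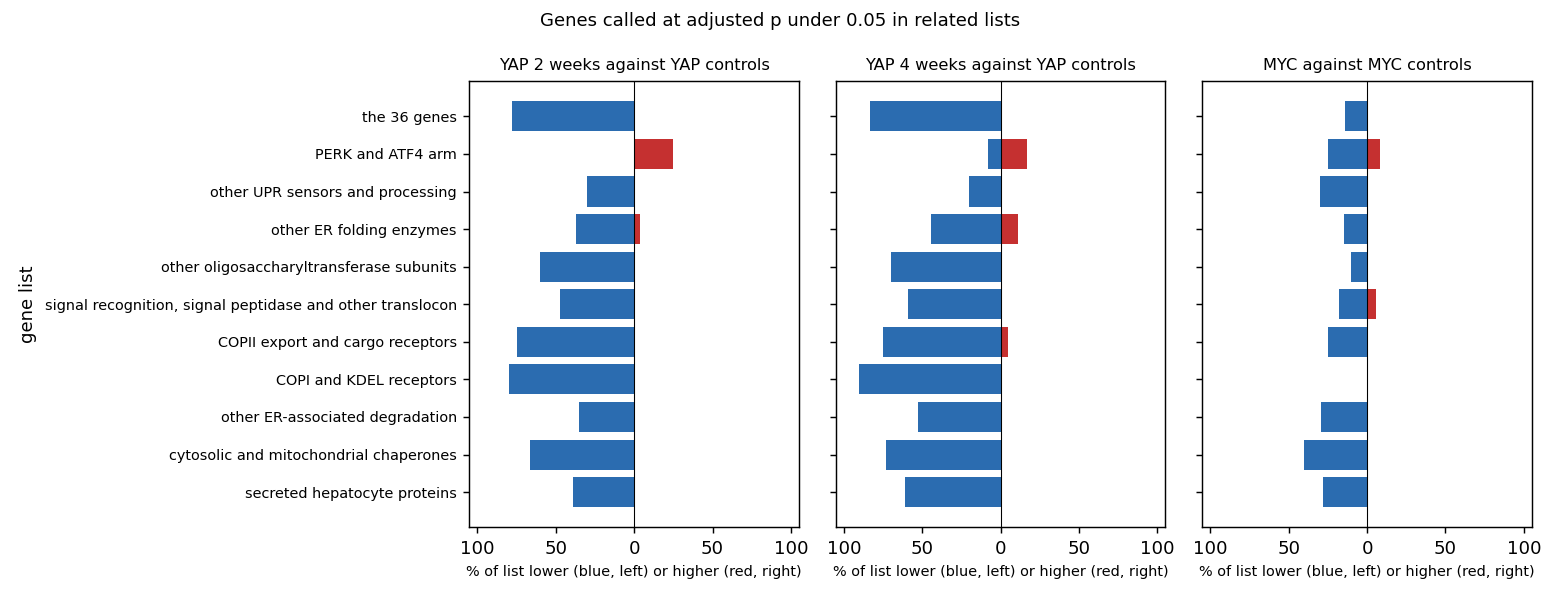
Bars give the percentage of each gene list that was lower (blue, to the left) or higher (red, to the right) at an adjusted p under 0.05 with TMM scaling, for the 36 genes and 10 related lists in the 3 comparisons with controls. Blue bars are long for the 36 genes, COPII and COPI under YAP, and short for most lists with MYC; the PERK and ATF4 list has more red than blue under YAP, as all tested genes do.

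Of the 12 genes of the PERK and ATF4 arm of the stress response 3 rose and none fell at 2 weeks, 2 rose and 1 fell at 4 weeks, and 1 rose and 3 fell with MYC. With total counts 5 and 0, 6 and 0, and 3 and 2 rose and fell. Of all tested genes 15.1% rose at 2 weeks and 18.1% at 4 weeks (29.1 and 43.8% with total counts), so nothing particular to the list is read from these counts. Of the 3 calls at 2 weeks, Sesn2 and Ddit4 were lost without any 1 of the 4 livers. Ddit3, which encodes the stress factor CHOP, was at 4.54 and 3.93 CPM in YAP controls, 6.38 and 12.9 at 2 weeks and 14.3, 7.63 and 7.73 at 4 weeks. All induced livers were above the controls, and the change passed at 4 weeks (1.22 ± 0.40, edgeR adjusted p = 0.0348) and not at 2 weeks (1.19 ± 0.42, adjusted p = 0.0567); the 4-week call was lost without control replicate 1 (adjusted p = 0.115), control replicate 2 (0.167) or 4-week replicate 1 (0.0871). Asns, asparagine synthetase and a target of ATF4, was at 3.54 and 7.33 CPM in MYC controls and 47.2, 78.4 and 87.6 with MYC (3.70 ± 0.56, edgeR adjusted p = 0.00243). Atf3, of the same list, fell with MYC, from 25.7 and 26.9 CPM in MYC controls to 3.04, 1.54 and 5.86. The Atf3 call was lost without MYC control replicate 1 or 2. The list thus went both ways with MYC, with more genes lower than higher. Of 10 other sensor and processing genes 3 fell at 2 weeks, 2 at 4 weeks and 3 with MYC (1 and 1, 0 and 4, and 2 and 0 fell and rose with total counts). Ern1, which encodes IRE1, was at 106 and 104 CPM in YAP controls, 54.7 and 58.6 at 2 weeks, 60.4, 59.5 and 66.2 at 4 weeks, 173 and 156 in MYC controls and 68.2, 47.9 and 86.1 with MYC, which put all 8 transgenic livers below their controls. The log2 fold changes were -0.89 ± 0.23, -0.76 ± 0.20 and -1.29 ± 0.20 (edgeR adjusted p = 0.014, 0.015 and 0.00219). The Ern1 call at 2 weeks was lost without any 1 of the 4 livers (adjusted p = 0.0581 to 0.0772 in edgeR), that at 4 weeks without either control (0.0816 and 0.0694), and both under total counts (0.32 and 0.964). Creb3l3, a hepatocyte factor of the same membrane-bound family as ATF6, fell at 2 weeks and at 4 weeks of YAP (-2.13 ± 0.46 and -1.73 ± 0.40). The Creb3l3 call at 2 weeks was lost without 2-week replicate 1 (edgeR adjusted p = 0.0545), and that at 4 weeks without YAP control replicate 1 (0.0501) and under total counts (0.086). Of the other related genes named here for YAP, Lman1, Lman2, Srpr, Uggt1, Hspa1b and Ttr passed with total counts at both times, Copz1 at 2 weeks, and Kdelr2 and Rpn1 at neither. With the sex pattern as a term the 4-week calls of Ern1, Ddit3, Creb3l3, Copz1, Kdelr2, Rpn1, Srpr and Ttr were lost.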

How the data were processed

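Gene counts of 12 mouse liver RNA-seq libraries were used as deposited by the authors, with no normalization. Per the submitters' processing notes the tools included Trim Galore 0.4.1, HISAT2 2.1.0, featureCounts 1.6.3 and DESeq2 1.20.0 with GRCm38/mm10; the annotation release, strand setting and handling of multiply mapped reads are not given in the sources used here. Libraries were grouped by their labels, which do not say whether replicates are separate mice. The 2-week YAP libraries differ in sex pattern and so came from different mice. The p-values measure the spread between these samples, which in the other groups may be technical. Replicate pairs differed beyond counting noise (chi-square per degree of freedom 11.2 to 107).

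Genes were kept by filterByExpr, scaled by TMM and tested by edgeR 4.0.16 (R 4.3.3, limma 3.58.1; quasi-likelihood, robust) in 1 fit of 12 libraries with 7 residual degrees of freedom and a common biological coefficient of variation of 31.5%. Adjusted p-values are Benjamini-Hochberg over 17964 genes. CPM values use TMM-scaled library sizes, and ± values are standard errors of log2 fold changes. The 36 genes, the related lists and the markers were chosen with earlier results of these data known. Every sample's value is printed for the genes called against controls with the 12 smallest p and for Hspa5, Hsp90b1, Calr, Pdia4, Xbp1, Atf6, Ero1lb, Derl3, Sdf2l1 and Creld2. Other members are given by values or counts. At most 4 genes of smallest p in a comparison are named from a related list. Alternatives were total-count scaling, DESeq2 1.42.0 and its size factors, no filter, no mitochondrial genes, only the groups compared, a replicate block, each library left out and, added after the data were seen, a sex-pattern term. Promoter sequences are RefSeq's on GRCm38.p6; Hyou1, Hspa13, Manf, Sec61a1, Ssr2, Derl1 and Atf6 had none in that table. Protein sequences were not used here.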

Additional observations from a re-analysis of the deposited data

Results flagged for a closer look

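For 15 of the 36 genes the MYC change differed from the 4-week YAP change in a test of the difference itself, always with the higher value for MYC (edgeR quasi-likelihood test, Benjamini-Hochberg adjustment over all tested genes). In log2 units, the chaperones Hsp90b1, Hyou1 and Calr differed by 1.51, 1.57 and 1.29. The co-chaperones and cofactors Dnajb11, Dnajc3, Sdf2l1 and Creld2 differed by 1.42, 1.24, 2.36 and 1.57. In oxidative folding Pdia3, Pdia4, Pdia6 and Ero1lb differed by 1.06, 0.998, 1.26 and 1.43. Of the translocation genes Sec61a1, Sec61b and Ssr1 differed by 0.87, 2.18 and 0.96, and the degradation gene Edem1 by 1.12. The adjusted p ran from 0.00263 for Ero1lb to 0.0418 for Creld2, and 3.15% of all tested genes were higher in the same sense. All 15 fell at 4 weeks of YAP, and of them Hyou1 and Ero1lb also fell with MYC. Most of the 15 calls were lost in some fit with 1 library left out, and 1, Sdf2l1, was left with the sex pattern as a term. The 4-week YAP livers differ from their controls in sex pattern, whereas the MYC livers and their controls share the male pattern.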

How the results depend on the processing

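Limits first: with 2 or 3 livers a group, calls near the threshold turn on single libraries, the 4-week YAP livers differ from their controls in sex pattern, and the scaling sets the zero of every fold change; the cause of the changes below was not tested. The counts of called members at 2 weeks, 4 weeks, with MYC, between the YAP times and between the models (28, 30, 5, 0 and 15) were 28, 30, 5, 0 and 15 with DESeq2's size factors in edgeR and without mitochondrial genes, 30, 30, 6, 0 and 21 in DESeq2, 26, 28, 5, 0 and 15 without a filter and 30, 27, 5, 0 and 15 with only the groups compared. Total counts gave 14 at 2 weeks and 15 at 4 weeks. The sex pattern as a term gave 11 at 4 weeks and 1 for the difference between models. Leaving out 1 library gave 21 to 23 at 2 weeks, 24 to 31 at 4 weeks, 1 to 5 with MYC, 0 between the YAP times and 2 to 20 for the difference between models. With the replicate number as a block the counts were 28, 28, 5, 0 and 14. Of 21 pairs of libraries with the same number in different groups, deviations from the group means correlated at -0.14 to 0.172 and 3 passed 0.1. Deviations within a group of 2 mirror each other, so these correlations cannot decide whether the numbers pair the libraries.

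From TMM to total counts the number of members with a negative log2 value went from 34 to 30 at 2 weeks, 36 to 27 at 4 weeks, 28 to 9 with MYC and 1 to 6 for the difference between models. Among the genes whose values were followed through every setting, which for MYC and the difference between models are a part of the 36, signs turned as follows. With total counts these were Dnajb9 0.055, Ssr2 0.15, Ddost 0.000447 and Sel1l 0.21 at 2 weeks; Dnajb9 0.38, Txndc5 0.0043, Ero1l 0.39, Ssr2 0.45, Ddost 0.24, Herpud1 0.68, Syvn1 0.16, Sel1l 0.16 and Atf6 0.17 at 4 weeks; Hspa5 0.26, Hsp90b1 0.32, Calr 0.042, Creld2 0.14, Pdia4 0.20 and Atf6 0.10 with MYC. For the difference between models they were Xbp1 -0.22 and Atf6 -0.069. With the sex pattern as a term Ero1l was -0.22 at 2 weeks and Herpud1 1.10 at 4 weeks, and with the block Hsp90b1 was 0.058 with MYC. With 1 library left out the values ran from -0.26 to 0.54 for Ero1l and -0.46 to 0.67 for Herpud1 at 2 weeks, and from -0.66 to 0.14 and -0.18 to 0.051 at 4 weeks. With MYC they ran from -0.20 to 0.027 for Hsp90b1 and from -0.0097 to 0.23 for Sdf2l1, and between models from -0.013 to 0.26 for Xbp1. Of the related genes, only Ddit3 at 2 weeks and genes already called with the smallest p of their list were followed. No sign turned among them, which this choice made likely, so it says nothing of the other related genes. With total counts 25 of their 58 results lost their call and 1 gained one.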

Other observations

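The controls of both models differed in some members, although genotype differs between them, age and doxycycline schedule may differ too, and no test was made. Hspa5 was at 853 and 859 CPM in YAP controls and 1599 and 1625 in MYC controls, Herpud1 at 326 and 332 and 662 and 848, and Derl3 at 8.50 and 5.73 and 17.6 and 12.9. Hsp90b1 (1323 and 1137 and 1400.2 and 1199.5 CPM) and Xbp1 (322 and 308 and 313 and 288) lay closer together. Among the 4-week YAP livers replicate 1 had the highest level of Hspa5, Hsp90b1, Sdf2l1, Pdia4, P4hb, Sec61b, Derl3, Sel1l and Herpud1, with Derl3 at 10.9 CPM beside 1.38 and 1.39 in the other livers of its group, while its Xbp1 was the lowest of the 3.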
